A study of Arabidopsis thaliana with 4 samples.

Results

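Accessible chromatin regions that 4 natural accessions of Arabidopsis thaliana shared, but that stood at another place in the strength order of Est-1, are described here. A shared region is a stretch covered by overlapping DNase I peaks with at least 1 peak from each accession, namely Est-1, Tsu-1, Bay-0 and Bur-0. Its rank in an accession is the percentile of its strongest peak, by the authors' signal value, among all nuclear peaks of that accession's list, with 100 at the top. Members are the shared regions whose Est-1 rank lay 20 or more percentile points above or below the mean rank of the other 3 accessions. Of 36153 regions in all, 19642 were shared and 1695 of these were members, 1189 ranking higher in Est-1 and 506 ranking lower. The members were thus chosen by the ranks themselves, which are given as a description only.

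DNase I cuts DNA where nucleosomes are absent or loosely held, which in plants is mostly at active promoters, just beyond gene ends and at distal regulatory elements where transcription factors bind. A region that is open in several accessions can still differ in how strongly it is cut, and such graded differences are looked for beside regions that are open in some genotypes and closed in others.

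Each accession was represented by 1 library of whole seedlings aged 7 days from long days (light for 16 h at 22°C, darkness for 8 h at 20°C). Without replicates no difference could be tested, and p-values are absent below. All 4 lines carried the INTACT construct UBQ10:NTF::ACT2:birA, in which broadly active promoters drive a nuclear tag and a biotin ligase, and nuclei were captured by their biotin before digestion with 45 units of DNase I. The titles name the accessions while the genetic background label reads Col-0 in all 4, and the accession names were followed. The Est-1 list held 29699 nuclear peaks, the others 28821 (Bay-0), 27388 (Tsu-1) and 25298 (Bur-0), and the sequencing depth behind them is unknown. With organelle peaks the Est-1 list held exactly 30000, and whether its length was capped is unknown. Genes that mark shoot and leaf were near shared regions in 20 of 23 cases, photosynthesis genes in 20 of 24, vascular genes in 8 of 10 and root genes in 7 of 14. In whole seedlings, a region open in fewer cells and a region less open in each cell cannot be told apart.

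The members made up 8.63% of the shared regions, 6.05% ranking higher in Est-1 and 2.58% ranking lower. By the same rule 4.16% ranked higher and 13.8% lower in Bur-0. The shares were 3.30% and 4.42% for Tsu-1 and 4.03% and 2.36% for Bay-0. Bur-0 therefore stood apart by this rule, and a comparison of Est-1 with Bay-0 and Tsu-1 alone gave 830 higher and 551 lower regions. The Bur-0 list was the shortest, and its median difference over all shared regions was -3.82 points. Its shares were not counted on another scale. Without Bay-0 in the comparison the numbers were 1992 and 650. The balance between the directions rested on the scale: 70.1% of the members ranked higher, but the median difference over all shared regions was 2.83 points in Est-1 rather than 0. With that median subtracted 50.8% ranked higher (769 against 746), with ranks taken among the shared regions 47.2% did (835 against 935), and with lists shortened to equal length 43.4% did (766 against 999). No excess of either direction is therefore reported.

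**Figure D1:**
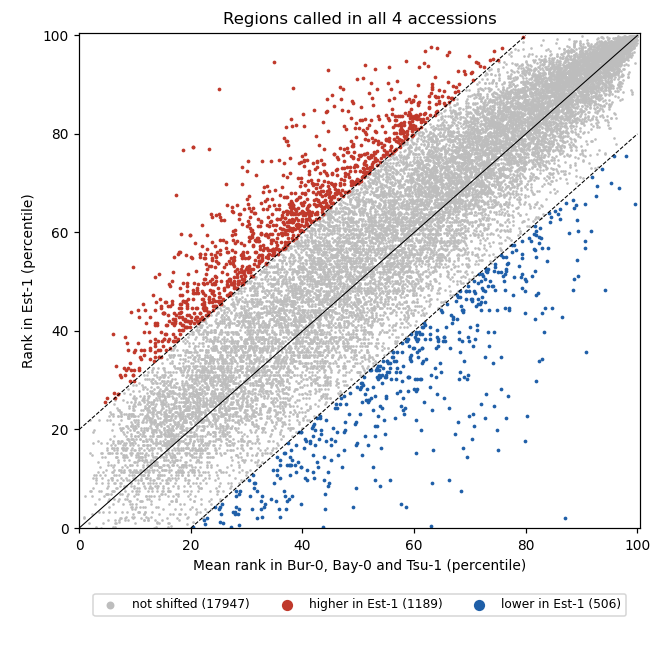
Rank of each of the 19642 shared regions in Est-1 (vertical axis, percentile) against the mean rank in the other 3 accessions (horizontal axis, percentile), with 1189 members higher in Est-1 in red, 506 lower in blue and the other regions in grey. The solid line marks equal ranks and the dashed lines the threshold of 20 points. By the limits of a percentile no red point can lie above a mean rank of 80 and no blue point below 20.

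In each of the other lists most of the higher members ranked below the middle. Their median rank was 63.7 in Est-1, against 25.2 in Bur-0, 39.0 in Tsu-1 and 43.4 in Bay-0. Of the regions with a mean rank of 20 to 40 in the others 13.9% were higher members, and of those at 60 to 80 1.73%. From 60 to 80 a higher member needs an Est-1 rank of at least 80, so the scale itself limits the latter share. The lower members had a median rank of 31.6 in Est-1, against 60.4 in Bay-0, 60.9 in Tsu-1 and 64.4 in Bur-0. Within a region the other 3 ranks spanned a median of 25.9 points in the higher and 20.0 in the lower members, against 13.7 in the other shared regions. The rule used these ranks, the sets were not matched for strength, and ranks near the top of a list have less room to differ. No feature of the members is therefore read from the spans. Est-1 lay outside the range of the other 3 ranks in 1117 of the 1189 higher members and in 467 of the 506 lower ones, and over all shared regions it lay above the other 3 in 33.3% and below them in 15.8%. The accession nearest to Est-1 was Bay-0 in 56.3% of the higher members, 34.8% of the lower ones and 45.9% of the other shared regions. The farthest was Bur-0 in 65.8% of the higher members, as the lowest of the other 3, and in 43.7% of the lower ones, as the highest. Bur-0 was the highest of the other 3 in 25.4% of the shared regions that were not members. How often it was the lowest there was not counted. A gap of 20 points or more to the nearest accession was present in 221 higher and 151 lower members. Differences of 50 points or more were found in 8 higher and 20 lower members.

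The widest differences among the higher members were at RSL1 and BR6OX2. The region nearest to RSL1, a bHLH factor of root hair development in the RHD6 family (chromosome 5, 15033361 to 15033510, 2556 bp from the gene), ranked 8.9 in Bur-0, 33.1 in Bay-0, 33.3 in Tsu-1 and 89.2 in Est-1. It went from the weaker part of the other lists to the strong part of the Est-1 list, a difference of 64.1 points, and it had no other shared region within 5000 bp. The region next to BR6OX2, a cytochrome P450 of the last steps of brassinosteroid synthesis (chromosome 3, 11813901 to 11814150, 18 bp from the gene), ranked 94.7 in Est-1 against 33.0 in Bur-0, 26.0 in Bay-0 and 45.6 in Tsu-1. None of its 3 shared neighbours within 5000 bp was a member, and their median difference was 9.8 points.

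RPP8 is a resistance gene against downy mildew whose NLR family occurs in several related copies, and the sources used here do not say how reads were divided among them. The region inside it (chromosome 5, 17466761 to 17466990) ranked 11.9 in Bur-0, 23.2 in Bay-0, 16.8 in Tsu-1 and 67.5 in Est-1. All 3 other accessions were close together and low, and Est-1 stood 44.3 points above the nearest. Near MTM1, named for its part in supplying manganese to the mitochondrial superoxide dismutase (AT4G27940, chromosome 4, 13908241 to 13908430), the ranks were 20.9, 28.8 and 19.9 against 77.0 in Est-1. About a kilobase further on, a region at CRF4, a cytokinin response factor (chromosome 4, 13909341 to 13909610), was also a member, with ranks of 8.0 in Bur-0, 25.1 in Bay-0, 27.0 in Tsu-1 and 55.1 in Est-1. At both regions Est-1 was above every other accession.

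SCL30A, XTH15 and TCH2 were also among the 12 widest higher members. The region at SCL30A, an SR-type splicing factor (chromosome 3, 4432161 to 4432330), ranked 92.9 in Est-1 against 25.2 in Bur-0, 47.8 in Bay-0 and 60.9 in Tsu-1. At XTH15, a cell wall enzyme that cuts and rejoins xyloglucan (chromosome 4, 8140021 to 8140230, 1629 bp from the gene), the rank was 82.9 in Est-1 against 36.4, 50.5 and 27.0. A second region beside it (8140961 to 8141130) was a member too, with 63.2 in Est-1 against 33.7, 18.8 and 23.4. Inside TCH2, a calmodulin-like protein first known from its response to touch (chromosome 5, 14998581 to 14998810), the Est-1 rank of 81.4 stood over 18.7 in Bur-0 and 22.0 in Tsu-1, but Bay-0 was also high at 70.4. The same held inside AT2G06025 (chromosome 2, 2349981 to 2350210), where Est-1 with 89.4 and Bay-0 with 84.0 stood above Bur-0 with 23.7 and Tsu-1 with 7.4. At AT1G67785 (chromosome 1, 25417061 to 25417250) Bay-0 ranked 75.4 and Est-1 73.3, with Tsu-1 at 11.8 and Bur-0 at 0.0, so Est-1 did not stand outside the others there. The remaining 3, at AT2G28620, AT5G59480 and AT5G02350, ranked 76.8 to 77.4 in Est-1 and at most 44.4 in the others.

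The widest difference among all members was a lower rank in Est-1. The region 260 bp from AT2G14880 (chromosome 2, 6392781 to 6393050) ranked 84.3 in Bur-0, 92.3 in Bay-0 and 84.7 in Tsu-1 and 1.9 in Est-1. It was a strong region in the other 3 accessions and among the weakest of the Est-1 list, 82.4 points below the nearest accession, and it had no shared neighbour within 5000 bp. At FAR1, a transposase-derived transcription factor of phytochrome A signalling (AT4G15090, chromosome 4, 8613901 to 8614150), Est-1 ranked 0.5 and Bur-0 1.8, while Bay-0 ranked 95.1 and Tsu-1 92.0. The accessions split into a low pair and a high pair there, so the low rank was not particular to Est-1. In AT4G12390 (PME1), an inhibitor of pectin methylesterase, the enzyme that sets how stiff wall pectin is (chromosome 4, 7337161 to 7337390), the rank was 4.3 in Est-1 against 46.5 in Bur-0, 60.0 in Bay-0 and 69.0 in Tsu-1.

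In 8 of the other 9 widest lower members the 3 other accessions were all high. Their Est-1 ranks ran from 7.5 at AT1G59660 (chromosome 1, 21929281 to 21929450) to 35.6 at AT1G69980 (chromosome 1, 26357701 to 26358050), and the lowest rank of any other accession among them was 55.8, at AT1G59660 in Bur-0. AT2G01870 (chromosome 2, 390381 to 390570) ranked 17.7 in Est-1 and 72.6, 83.9 and 83.4 in Bur-0, Bay-0 and Tsu-1. AT2G03667 and AT1G61660 were also over 50 points below the nearest accession, at 51.5 and 52.0 points, as was AT3G62499 at 50.8 points. The exception, a region 90803 bp from AT5G30520 in the gene-poor middle of chromosome 5 (11727441 to 11727610), ranked 99.8 in Bur-0, 96.1 in Bay-0, 29.4 in Tsu-1 and 15.8 in Est-1. Another of the wide lower members stood near ABCB19, an auxin transporter of the ABC family (chromosome 3, 10881661 to 10881890), with 27.1 in Est-1 and 68.3 to 76.3 in the others.

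**Figure D2:**
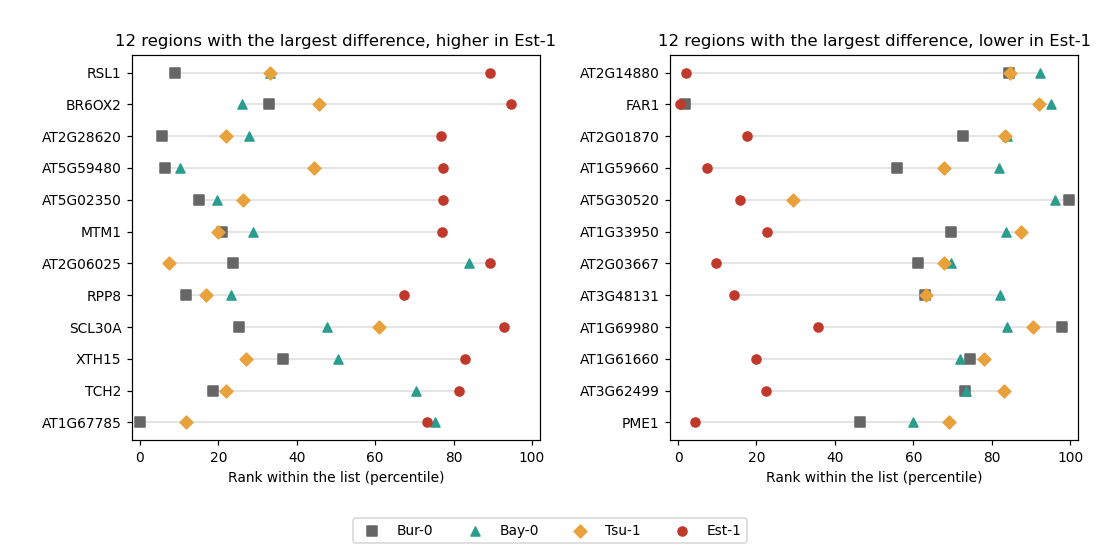
Ranks (percentile within the list, horizontal axes) of the 12 members with the widest difference in each direction, each row a region named by its nearest protein-coding gene and each symbol an accession, 1 library each. Est-1 (circles) stands apart from the other 3 accessions in most rows, while TCH2, AT2G06025, AT1G67785, FAR1 and AT5G30520 show another accession nearer to it.

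The threshold was not a natural break. The members just inside it on the high side, at AT1G79260 and AT1G80380, differed by 20.003 and 20.004 points, and the regions just outside, at AT4G18950 and AT4G27300, both by 19.984. On the low side AT1G64385 and FUM2, a cytosolic fumarase, were just inside with -20.034 and -20.037, while AT1G34340 and PIN3, an auxin efflux carrier, were just outside with -19.977 and -19.960. At FUM2 Est-1 ranked 57.5 and Bur-0 58.8, below Bay-0 with 86.3 and Tsu-1 with 87.5. The regions at the promoter genes named in the line label, UBQ10 and ACT2, were not members: the differences were -0.2 points at UBQ10, where every accession ranked 99.5 or above, and -5.4 and -0.6 points at ACT2. How reads of the construct were told apart from those of these genes is not described, so the regions are not taken as a reference.

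Genes of 24 lists for seedling pathways held 31 higher and 21 lower members in 661 shared regions, 4.69% and 3.18%, close to the 6.05% and 2.58% of all shared regions. The salicylic acid and defence, root, vascular and housekeeping lists held no member in 25, 10, 16 and 16 regions. Counts below are to be read against those percentages, and with so few regions a list none is called particular. A rank given beside a gene's name is that of a region nearest to it, which can lie over 1000 bp away. Other shared regions near the same gene need not be members.

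Photosynthesis genes had members in both directions, light signalling genes lower ones. PSBO1 and PSBO2 encode the paired forms of the extrinsic subunit that stabilises the oxygen-evolving manganese cluster, and they stood on opposite sides. At PSBO2 (chromosome 3, 18892441 to 18892670) the ranks were 80.1 in Est-1 against 53.5 in Bur-0, 55.0 in Bay-0 and 60.9 in Tsu-1. At PSBO1 (chromosome 5, 26568241 to 26568410) they were 66.4, 80.0 and 58.4 against 35.6 in Est-1. Est-1 thus had the highest rank of the 4 at PSBO2 and the lowest at PSBO1. POR C, which reduces protochlorophyllide in the light, ranked 73.9 in Est-1 and 36.2 to 64.7 in the others, while LHCB4.1, a minor antenna protein of photosystem II, ranked 33.0 against 46.3 to 67.7, as part of 2 higher and 2 lower members in 34 regions of the list. The light signalling list had 2 lower and no higher member in 39 regions. These were SPA1, a partner of the COP1 ubiquitin ligase, with 47.6 in Est-1 against 75.2 to 87.3, and FHY1, which carries phytochrome A into the nucleus, with 47.6 against 62.5 to 83.6. GLK2, a regulator of chloroplast development outside the lists, ranked 66.0 against 84.8 to 91.1. The calls at LHCB4.1, FHY1 and GLK2 were not made without Bur-0, where the differences were -13.6, -16.8 and -19.4 points, nor that at POR C without Tsu-1, at 15.5.

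Among clock and flowering genes, RVE8, a MYB-like activator of evening genes (chromosome 3, 2946141 to 2946390), was the widest, with 62.7 in Bur-0, 72.5 in Bay-0, 45.6 in Tsu-1 and 21.9 in Est-1. Est-1 was the lowest there by 23.7 points. ELF3, a part of the evening complex at which natural variation is known, was a member through Bur-0: the region 794 bp from the gene ranked 6.5 in Bur-0, 53.1 in Tsu-1, 57.7 in Bay-0 and 61.3 in Est-1, and the difference shrank from 22.2 to 5.9 points without Bur-0. A region 2807 bp from TEM1, a repressor of FT, ranked 52.2 in Est-1 and 68.9 to 78.6 in the others. Of its 10 shared neighbours within 5000 bp only 1 was a member. At MAF3, a floral repressor of the FLC clade, Est-1 with 57.2 and Bay-0 with 54.3 stood above Tsu-1 with 27.8 and Bur-0 with 15.1. AP1 and SEP1, floral identity genes best known from flowers, also had higher members, at 81.2 against 25.5 to 67.4 and at 65.4 against 27.6 to 47.8. The AP1 region lay 3172 bp from the gene, and none of its 3 shared neighbours within 5000 bp was a member. AP1 fell below the threshold without Bay-0, at 18.6 points, and SEP1, MAF3 and TEM1 without Bur-0, at 17.8, 16.2 and -19.9.

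Nitrate assimilation gave another opposed pair. NIA2, the main nitrate reductase of shoots, had 2 lower members, 1103 and 1643 bp from the gene. The first (chromosome 1, 14163041 to 14163210) ranked 16.8 in Est-1 against 58.1 in Bur-0, 42.5 in Bay-0 and 47.9 in Tsu-1. The other (14163581 to 14163910) ranked 26.0 in Est-1 against 48.1, 47.8 and 59.2. NIA1, the other nitrate reductase, had a higher member (chromosome 1, 29241661 to 29241830) with 48.1, 40.0 and 34.0 against 62.8. Est-1 was outside the range of the other accessions at all 3 regions. The NIA1 region lay 2177 bp from the gene, and none of its 6 shared neighbours within 5000 bp was a member. Among the 6 such neighbours of the first NIA2 region 1 was a member. The region near NIR1, the nitrite reductase that acts next in the pathway, ranked 94.4 in Est-1, 88.6 in Tsu-1, 75.9 in Bur-0 and 20.7 in Bay-0, so that Bay-0 carried its difference, which was 12.2 points without Bay-0. In phosphate signalling PHR1, the central activator of the starvation response, ranked 48.8 against 14.3 to 39.5, and SPX1, which binds and restrains PHR1 when phosphate is ample, ranked 36.6 against 49.1 to 81.3. The nutrition list as a whole held 3 higher and 3 lower members in 42 regions. Nitrate transporter genes were on both sides too, NRT2.6 with 73.3 against 35.3 to 56.6 and NRT1.5, which loads nitrate into the xylem, with 16.8 against 38.0 to 64.4. The difference was 14.3 points at PHR1 without Bur-0 and 18.7 at NIA1 without Tsu-1, both under the threshold.

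In ethylene signalling, 4 higher and 1 lower member were found in 25 regions, and the list's median difference was 5.9 points against 2.83 over all shared regions. EIN2, the membrane protein that carries the signal from the receptors towards the nucleus, had a member of each kind. The region 918 bp from it (chromosome 5, 786161 to 786510) ranked 23.7 in Bur-0, 16.7 in Bay-0, 76.2 in Tsu-1 and 81.8 in Est-1. The region at the gene (793221 to 793470) ranked 53.5, 26.4 and 39.0 against 12.3 in Est-1. Tsu-1 accompanied Est-1 at the first, and Est-1 alone was lowest at the other. EBF1 and EBF2, the paired F-box proteins that remove the EIN3 transcription factor, were both higher, EBF1 with 84.0 against 59.0 to 62.9 and EBF2 with 92.6 against 63.1 to 77.4. ERF1, a target of EIN3, ranked 66.3 in Est-1, with Tsu-1 close at 60.9 and Bay-0 and Bur-0 at 19.7 and 40.5. Outside the list the receptor gene EIN4 ranked lower, with 40.7 against 50.9 to 77.7. Without Bur-0 the calls at EBF2 and EIN4 were not made, at 18.5 and -12.6 points, nor was that at ERF1 without Bay-0, at 15.6. The list's 4 to 1 balance was not kept when ranks were taken among shared regions, which gave 5 higher and 3 lower, or with the median subtracted, which gave 3 of each.

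Jasmonate synthesis showed its members at LOX2, the plastid lipoxygenase of the wound response, and at AOS, the allene oxide synthase that acts after it. LOX2 had a region 755 bp away (chromosome 3, 16524261 to 16524490) with 30.7 in Bur-0, 52.0 in Bay-0, 38.3 in Tsu-1 and 81.7 in Est-1, and a region at the gene (16525101 to 16525250) with 48.1, 60.9 and 41.8 against 82.8. Est-1 was more than 20 points above every other accession at both. At AOS only Bur-0 was low, at 15.8, with 66.3 in Tsu-1, 75.1 in Est-1 and 76.9 in Bay-0, and the difference was 3.5 points without Bur-0. The list held 3 higher and no lower members in 26 regions, but 2 higher and 3 lower with ranks taken among shared regions.

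The cytokinin list held 2 higher members, at CKX3 and ARR4, and no lower one in 30 regions, 6.67%, close to the 6.05% of all shared regions. With genes outside the list added, higher members were found in synthesis, breakdown and response. CKX3, an oxidase that degrades the hormone, ranked 96.9 in Est-1 and 91.6 in Tsu-1, against 43.5 in Bur-0 and 50.9 in Bay-0. The synthesis genes IPT7 and IPT9 ranked 66.3 against 20.1 to 52.7 and 73.7 against 9.7 to 71.9. Counted by symbol, genes of synthesis and breakdown held 4 higher and no lower members in 42 regions, 9.52%, and cytokinin response factors 4 and none in 28, 14.3%. Besides CRF4 these were CRF1 with 76.8, CRF2 with 83.3 and CRF7 with 89.8 in Est-1, and in each the next accession was Bay-0 or Tsu-1. Without Bur-0 the response factors had 1 higher member and the synthesis and breakdown genes 2, in place of 4 each, and IPT7 and IPT9 differed by 15.9 and 4.3 points. ARR4, a type-A response regulator, ranked 73.7 in Est-1 and 71.6 in Bay-0, with Bur-0 at 38.5 and Tsu-1 at 50.1, a difference of 12.8 points without Bur-0. Both cytokinin groups were counted after values of these genes had been seen.

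The auxin list held 2 lower members, at SHY2 and PIN7, and no higher one in 82 regions, 2.44%, which is about the background. SAUR auxin growth genes held 1 higher and 2 lower in 96. Aux/IAA proteins repress auxin response until the hormone causes their removal. Their genes held 4 lower members, 5.48%, and no higher ones in 73 regions, with a median difference of -0.9 points. SHY2 and AXR3 are neighbours on chromosome 1, and both intergenic regions between 1132641 and 1135670 were members: near SHY2 the ranks were 78.6, 76.7 and 57.1 against 48.0 in Est-1, and near AXR3 65.4, 68.6 and 72.5 against 43.9. IAA8 ranked 44.3 against 63.1 to 79.7, and IAA7 12.3 against 23.0 to 61.3. Est-1 was the lowest accession at all 4. The counts were 9 lower with ranks taken among shared regions, 6 with the median subtracted and 7 with equally long lists, with no higher member in these, and 6 lower with 1 higher when Tsu-1 was left out. Lower calls over all shared regions rose in these settings too, from 2.58% to 4.76%, 3.80%, 5.46% and 3.21% in the same order. The larger counts are therefore not read as a stronger result for the family. The region 1899 bp from PIN7, an efflux carrier (chromosome 1, 8178061 to 8178290), ranked 61.2 in Bur-0, 66.4 in Bay-0, 71.0 in Tsu-1 and 24.4 in Est-1. Est-1 was lowest by 36.8 points, and none of the region's 6 shared neighbours within 5000 bp was a member. SHY2 was not called without Bur-0 or without Bay-0, at -18.9 and -19.8 points. Its region lay 2952 bp from the gene, and 1 of its 8 shared neighbours within 5000 bp was a member. DFL1, an enzyme that conjugates auxin, outside the list, ranked 51.2 against 73.2 to 87.0. Outside the list, and picked after their values were seen, the synthesis genes YUC4 and TAR2 and the uptake carrier LAX1 had higher members. They ranked 59.4 against 15.8 to 50.1, 53.3 against 17.4 to 33.1 and 47.3 against 18.1 to 34.0, and YUC4 was not called without Bur-0, at 17.0 points.

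Brassinosteroid synthesis genes held the strong higher member at BR6OX2 and 2 lower members in 35 regions. DWF4, the early and rate-limiting hydroxylase of the pathway, ranked 33.9 in Est-1 against 42.5 to 67.0, and ROT3, a related P450, 56.4 against 73.2 to 87.5. Neither lower call was made without Bur-0, which ranked highest at both. In gibberellin and abscisic acid signalling the members were few: GAI, a DELLA growth repressor, ranked 83.1 against 26.1 to 70.2, and GA20OX1, an enzyme of gibberellin synthesis, 30.2 against 41.8 to 64.7. The GAI and GA20OX1 regions lay 1732 and 2076 bp from the genes. None of their 7 and 3 shared neighbours within 5000 bp was a member. PYL6, an abscisic acid receptor, ranked 57.2 against 10.4 to 33.7, while CYP707A1, which breaks the hormone down, ranked 18.6 against 27.8 to 85.8, and ABI2, a phosphatase that the receptors inhibit, 30.6 against 39.7 to 70.4. Apart from PYL6 none of these calls was made without Bur-0, where the differences were 15.5 points at GAI, -17.6 at GA20OX1, -18.1 at CYP707A1 and -10.7 at ABI2.

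Expansins loosen the cell wall and XTH enzymes remodel its xyloglucan; their genes held 8 higher and no lower members in 90 regions, 8.89%. Besides the pair at XTH15, the pairs at EXPA4 and EXPA9 were the widest. EXPA4 had a region (chromosome 2, 16546921 to 16547150) with 65.1 in Est-1 against 18.7 in Bur-0, 22.7 in Bay-0 and 40.4 in Tsu-1, and another (16548141 to 16548350) with 62.3, where Tsu-1 was higher still at 65.6. EXPA9 had 83.3 in Est-1 and 72.2 in Tsu-1, against 37.1 and 36.9, at 1 region and 60.7 against 33.0 to 41.8 at the other. TCH4, an XTH gene also known from touch responses, ranked 54.7 in Est-1 and 54.6 in Bay-0, with Tsu-1 at 29.4 and Bur-0 at 17.4. With ranks taken among shared regions the family had 5 higher and 4 lower members, and with equally long lists 6 and 2. It had 5 higher and no lower with the median subtracted, and the same without Bur-0, where TCH4, the second EXPA4 region and a region of EXPA9 differed by 12.7, 13.3 and 19.8 points.

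Cysteine-rich receptor kinases, a large family of tandem gene copies linked to stress and defence, held 6 higher and no lower members in 28 regions, 21.4%. Copies of this kind can share reads, and the sources used here do not say how these were placed. CRK5, EP1 (AT4G23170, also called CRK9), CRK12 and CRK18 lie together between 12116841 and 12170530 on chromosome 4. CRK5 ranked 65.8 in Est-1 against 26.8 to 44.3, and CRK12 48.0 against 2.4 to 35.8. At EP1 Bay-0 was above Est-1, with 65.5 against 58.1, and at CRK18 Tsu-1 was close, with 64.8 against 66.9. CRK42 on chromosome 5 was a member through Bay-0, which ranked 20.2 while the others ranked 82.5 to 85.6. The count was 2 with ranks taken among shared regions or with the median subtracted, and 3 without Bur-0. CRK12, CRK18 and EP1 were the calls lost without Bur-0, at 16.2, 11.9 and 9.8 points, and CRK42 differed by 1.4 points without Bay-0.

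The salicylic acid and defence list held no member. ADR1-L1, a helper NLR from the list of NLR immune receptors, was strong in every accession but least in Est-1, with 70.1 against 91.7 to 98.8. Outside the lists, and picked after their values were seen, NPR4, a salicylic acid receptor, ranked 43.6 against 78.7 to 81.4, and SARD1, an activator of salicylic acid synthesis, 1.9 against 18.3 to 40.4. The WRKY transcription factors, many of which act in immunity, held 1 higher and 4 lower members in 110 regions, and 2 of each without Bur-0. WRKY8 ranked 30.6 against 54.9 to 65.2 and WRKY14 39.4 against 57.5 to 64.4. ABO3, a WRKY gene with a role in abscisic acid response, ranked 26.8 in Est-1 and 30.3 in Tsu-1, against 54.6 in Bay-0 and 80.0 in Bur-0, and differed by -15.7 points without Bur-0. The higher member was at WRKY23.

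In flavonoid synthesis LDOX, the anthocyanidin synthase (chromosome 4, 12006281 to 12006570), ranked 55.3 in Bur-0, 85.4 in Bay-0, 69.0 in Tsu-1 and 22.7 in Est-1, lowest by 32.6 points. FLS1, the flavonol synthase that competes with the anthocyanin branch (chromosome 5, 2803541 to 2803890), ranked 23.7, 39.5 and 54.2 against 71.0 in Est-1. TT5, the chalcone isomerase, ranked 43.2 against 14.3 to 33.1, and TTG1, a WD40 protein needed for anthocyanins and hairs, 28.6 against 44.3 to 55.3. These were 2 higher and 2 lower members in 12 regions of the list. The TTG1 region lay 2494 bp from the gene, and none of its 7 shared neighbours within 5000 bp was a member. UDP glycosyltransferases, which attach sugars to such compounds and to hormones, held 5 higher and no lower members in 63 regions, 3 of them in a run at UGT84A1 and UGT84A3. In glucosinolate defence MYB28, the activator of the aliphatic branch, ranked 70.3 in Est-1 with Tsu-1 close at 67.4, and ESP, which turns the breakdown products to nitriles, ranked 19.4 against 29.2 to 48.9. Without Bur-0, TT5, TTG1 and MYB28 differed by 15.6, -19.4 and 11.6 points and the 3 regions of the UGT84A run by 8.6 to 18.4, and without Bay-0 ESP by -15.8, all under the threshold.

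**Figure D3:**
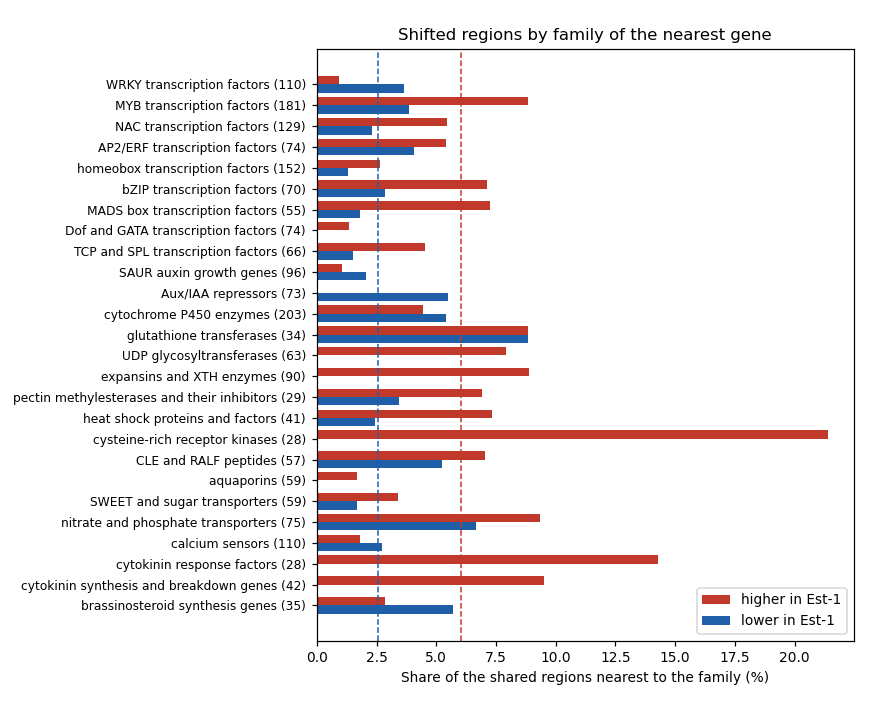
Share of the shared regions nearest to a gene family (horizontal axis, percent) that were higher (red) or lower (blue) in Est-1, for families with at least 25 shared regions, whose number stands in parentheses. Dashed lines mark the shares over all shared regions, 6.05% and 2.58%, and cysteine-rich receptor kinases reach 21.4% higher while Aux/IAA repressors have no higher member.

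Members near shoot development genes numbered 3 higher and 1 lower in 44 regions of that list, close to the background. CUC3, a NAC factor that sets organ boundaries, shared the longest run of members with PHT1;9, a phosphate transporter gene (chromosome 1, 28671481 to 28678310). The 5 regions of the run differed by 20.9 to 40.2 points. At a region 2316 bp from CUC3 (28676361 to 28676510) the ranks were 60.8, 67.2 and 69.6 against 96.1 in Est-1, and at the widest, near PHT1;9 (28677281 to 28677490), they were 20.1 in Bur-0, 51.7 in Bay-0, 87.4 in Tsu-1 and 93.3 in Est-1. Tsu-1 was thus also high at the latter. AN3, ANT and BOP2 are outside the list and were picked after their values were seen. AN3, a coactivator of leaf cell proliferation, had 2 higher members, with 64.7 against 22.7 to 34.3 and 58.6 against 19.4 to 36.9. ANT, a promoter of organ growth, ranked 64.0 against 26.0 to 36.9. AS2, a leaf polarity factor, ranked 76.4 in Est-1 and 72.5 in Tsu-1, against 54.3 and 17.4. KAN, which sets the lower leaf side, was a lower member with 6.4 against 20.2 to 36.4. BOP2, a regulator of leaf and petiole form, ranked 53.3 against 78.2 to 79.1. AS2, KAN and the first region of the run at CUC3 were not called without Bur-0, and KAN and that region then differed by -17.5 and 9.9 points. The MYB family as a whole held 16 higher and 7 lower members in 181 regions, but 11 and 13 with ranks taken among shared regions.

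At the settings used, a smaller share of the members than of the other shared regions lay at gene ends. Regions with a midpoint at most 400 bp from the end of any protein-coding gene were 51.6% of the higher members (48.8 to 54.5) and 50.2% of the lower ones (45.8 to 54.6), against 57.6% (56.9 to 58.3) of the shared regions that were not members. Ranges in parentheses are exact Clopper-Pearson intervals at 95%, which take in counting error alone. Among regions of middle strength in the other accessions, with a mean rank from 30 to 70, the shares were 48.7% and 50.5% against 60.9%. With a window of 1000 bp the higher members, at 76.1% (73.6 to 78.5), were no longer apart from the 77.5% of other regions, while the lower ones held 68.4% (64.1 to 72.4). Nor were the higher ones apart when Bay-0 was left out, at 55.9% (53.7 to 58.1) against 57.5%, and the lower ones then held 50.2% (46.2 to 54.1). Distal regions, with a midpoint over 1000 bp from any gene, made up more of the lower members, with 27.1% (23.2 to 31.2) against 19.8% (19.3 to 20.4), and flanks up to 1000 bp more of the higher ones, with 19.9% (17.7 to 22.3) against 16.8% (16.3 to 17.4). The RefSeq table used for genes gives no strand, so starts and ends could not be told apart. Distances printed beside a gene run from the nearer edge of the region, so a distal region can be given with less than 1000 bp. Bins of 100000 bp with fewer than 15 genes held 5.53% (3.71 to 7.90) of the lower members, 2.78% of the higher ones and 2.30% (2.08 to 2.53) of the others. Long noncoding RNA genes were overlapped by 5.05% (3.87 to 6.45) of the higher members, 1.98% (0.952 to 3.60) of the lower ones and 3.41% (3.15 to 3.69) of the others.

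**Figure D4:**
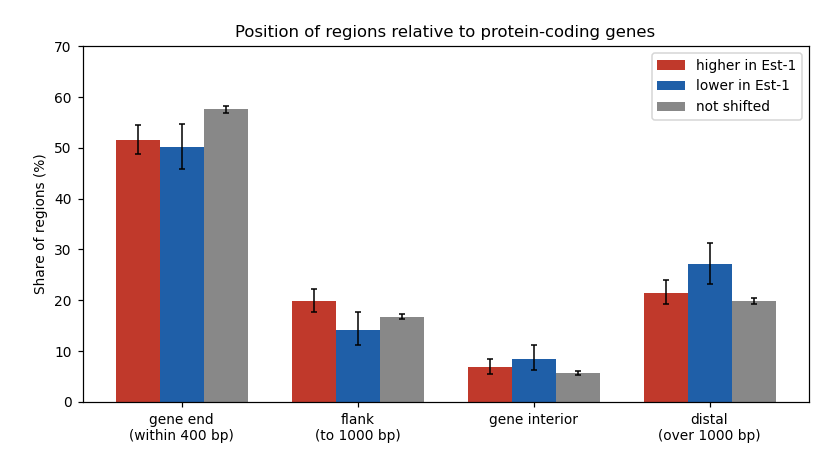
Share of regions (vertical axis, percent) in 4 classes of position relative to protein-coding genes, for members higher (red) and lower (blue) in Est-1 and for the other shared regions (grey). Bars show shares and lines their exact 95% intervals, and both kinds of member stand below the other regions at gene ends, at 51.6% and 50.2% against 57.6%.

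Some of these features were found around the regions that shifted in other accessions too. Gene ends held 51.0% of the regions lower in Bay-0 and 47.0% of those higher in Tsu-1, but 64.2% of those higher in Bay-0 and 67.7% of those lower in Tsu-1. Gene-poor bins held 5.83% of the regions lower in Bay-0 and 7.55% of those higher in Tsu-1, and distal regions 24.8% of the former and a larger share of the latter. The position of the Est-1 members was thus also found for other accessions, and all these counts come from the same 4 libraries.

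In lower members the strongest Est-1 peak stood away from the place of the other accessions' peaks more often than in higher members or in shared regions that were not members. Its distance from the median position of the other 3 strongest peaks was 50 bp or more in 28.1% (24.2 to 32.2) of the lower members, against 11.4% (9.61 to 13.3) of the higher members and 14.8% (14.2 to 15.3) of the other shared regions. In each list 99.9% of the peaks were 150 bp wide, so the width of a region follows mostly from how far its peaks are spread. The median width of 210 bp in lower members, against 190 bp in both other sets, is thus not a separate feature. Where the Est-1 peak lay within 10 bp, 611 higher and 183 lower members remained of 10381 shared regions. An offset of that size was as frequent in the regions lower in Bay-0, with 28.7% (24.6 to 33.1), and was found in 24.2% of those higher and 21.4% of those lower in Bur-0 and in 21.6% of those lower in Tsu-1. The part of the offset in the lower ranks was not tested.

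Neighbouring regions leaned the same way as the members, in values of the same contrast that chose them and so as a description. Shared regions at most 250 bp away from a higher member had a median difference of 6.94 points and those beside a lower member -1.45, against 1.28 beside other regions. Shared regions from 250 to 500 bp away from a higher member had a median difference of 8.3 points, and those beside a lower member -1.82, against 1.58 beside other regions. At 500 to 1000 bp the medians were 7.46 and -2.64, the lowest for lower members. At 2000 to 5000 bp they were 4.43 and 0.34 against 1.97, and at 10000 to 20000 bp 3.39 and 1.87 against 2.46, nearer to those of the other regions. Of regions 250 to 500 bp from a higher member 17.6% were higher members themselves and 1.35% lower ones, and beside lower members the shares were 2.41% and 14.5%. Of the 47 neighbours at most 250 bp from a lower member 4.26% were lower members. Another member of the same direction lay within 10000 bp of 31.2% (28.6 to 33.9) of the higher and 21.7% (18.2 to 25.6) of the lower members, a difference that the larger number of higher members also sets. Only 5 higher members had a lower member within 1000 bp.

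**Figure D5:**
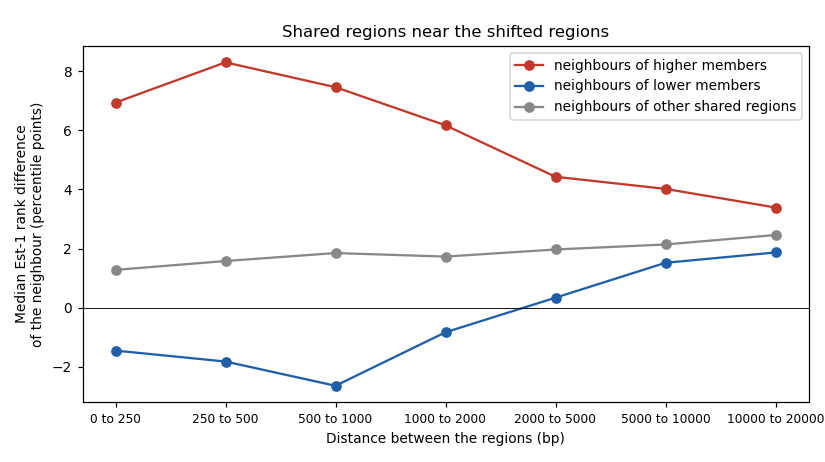
Median Est-1 rank difference (vertical axis, percentile points) of shared regions at increasing distance (horizontal axis, bp) from higher members (red), lower members (blue) and other shared regions (grey). The red line starts at 6.94, peaks at 8.3 at 250 to 500 bp and falls to 3.39 at 10000 to 20000 bp, and the blue line goes from -1.45 to -2.64 at 500 to 1000 bp and then climbs to 1.87.

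Calls outside the shared set leaned likewise within 1000 bp, but not clearly within 300 bp. A region called in Est-1 but in no other list lay within 1000 bp of 9.17% (7.59 to 11.0) of the higher members, 3.56% (2.12 to 5.56) of the lower ones and 6.61% (6.25 to 6.99) of the other shared regions. A region that the other 3 lists held without Est-1 lay as near to 1.85% (1.16 to 2.79) of the higher members, 6.72% (4.70 to 9.26) of the lower ones and 3.08% (2.83 to 3.34) of the others. Within 300 bp the shares for regions only in Est-1 were 2.86% (1.99 to 3.97), 2.17% (1.09 to 3.86) and 2.12% (1.92 to 2.34). For regions without Est-1 they were 0.336% (0.0917 to 0.859), 1.58% (0.685 to 3.09) and 0.802% (0.677 to 0.944). At that distance the intervals of members and others overlapped.

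Runs, in which consecutive shared regions at most 20000 bp apart were all members of the same direction, were mostly short. Of the higher runs 943 were single regions, 103 were pairs and 12 held 3 or more, and of the lower runs 435 were single, 34 were pairs and 1 held 3. After the run at CUC3, the longest lay at LAS1, a sterol cyclase, and LOX2 (chromosome 3, 16519221 to 16532950), with 4 regions, and at IM and SOBER1 (chromosome 4, 11772541 to 11787010), also with 4. IM, the plastid terminal oxidase whose loss gives variegated leaves, held the widest of the latter, with 28.4 in Bur-0, 46.1 in Bay-0, 58.0 in Tsu-1 and 84.4 in Est-1. Its 4 regions differed by 21.5 to 40.2 points.

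In the longest lower run Bur-0 ranked highest at every region. It lay 56943 to 60863 bp from its nearest gene, AT3G32980, in the gene-poor middle of chromosome 3 (13587041 to 13591110), and its 3 regions stood at the top of the Bur-0 list and at 99.2 and 88.6. In Est-1 they ranked 55.7, 33.4 and 10.2, but Tsu-1 was below Est-1 at the first pair of regions, with 50.1 and 18.4. Without Bur-0 the differences were -13.4, -0.0 and -8.5 points, so none was called. At ABCC1, a vacuolar transporter of the ABC family (chromosome 1, 10725301 to 10725550), Bur-0 ranked 76.1 while Bay-0, Est-1 and Tsu-1 ranked 5.9, 4.3 and 2.3, and the difference went from -23.8 to 0.2 points without Bur-0, the change of sign found in 1 lower member.

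On each chromosome 5.52 to 6.62% of the shared regions were higher members and 2.05 to 2.91% lower ones. In windows of 500000 bp with at least 30 shared regions, the share of higher members had a median of 5.95% and reached 21.5% (12.3 to 33.5) on chromosome 5 from 17000001 to 17500000, where 14 of 65 regions were higher members. That window holds the AOS and RPP8 regions, a pair inside and at the end of SPL2, a regulator of the juvenile to adult change (49.4 in Est-1 against 20.7 to 33.3, and 78.6 against 47.0 to 57.1), and regions at IPK1, an inositol phosphate kinase (59.4 against 15.1 to 48.9), and RD21B, a papain-like protease (43.9 against 2.4 to 20.2). Their neighbours in the window were not all higher, since 3 further members ranked lower, among them AT5G43064 with 22.3 in Est-1 against 20.1 in Bur-0 and 89.5 in Tsu-1. For the lower members the window with the largest share, 10.6% (3.55 to 23.1), stood on chromosome 1 from 21500001 to 22000000, with 5 of 47 regions. These windows were picked as the extremes of 197.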

How the data were processed

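DNase I-seq peak lists of 4 libraries, 1 per accession, were used. Per the submitters' processing notes, Bowtie 0.12.7 and build TAIR10 were used. Peak calling and read filtering are not described in the labels or file headers. The deposited signal is the authors' whole number per peak, with no scaling stated, and was used only for ranks within a list. The deposited −log10 p of each peak, computed by the authors and nowhere above 324, served as an alternative ranking. Depth is unknown, so the precision of a rank cannot be given. One line is Tsu-1 in its sample labels and Tsu-0 in the design text, and the former name is used. Gene names and positions came from RefSeq (TAIR10.1), which gave 27444 protein-coding genes; region coordinates come from the lists, and sequences were not analysed here.

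Peaks on the 5 nuclear chromosomes that overlapped were merged, the best peak per list gave the rank, and each region was named by its nearest protein-coding gene. Position was classed in the order gene end (400 bp), interior, flank (1000 bp) and distal. With 1 library per accession no test was run. The merging, ranking and position steps were tested on simulated lists. Named by rule are, per direction, the 12 widest members, the 6 with the widest gap to the nearest accession, up to 25 nearest to a listed gene, the 2 on each side of the threshold and the longest run, with UBQ10 and ACT2. Genes named beyond these rules, as examples of a family, window or run or singly, were picked after their values were seen. Members and lists were chosen with earlier results of these data known. The 24 lists gave 418 of 435 symbols a gene, and 30 families were found by symbol. Alternatives were other thresholds, merging, overlap, list length, ranking, gene windows and leaving out an accession. Python 3.11.15, pandas 2.3.3, numpy 2.4.6, scipy 1.17.1 and matplotlib 3.10.9 were used.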

Additional observations from a re-analysis of the deposited data

How the results depend on the processing

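With 1 library per accession no value below has a replicate check, and depth limits cannot be given. No paired analysis was possible because each accession has 1 library and no replicate numbers. Against 1189 higher and 506 lower members, a threshold of 15 points gave 2451 and 993, a threshold of 30 gave 231 and 147, and the nearest accession in place of the mean gave 221 and 151. Equally long lists gave 766 and 999, and ranks among shared regions 835 and 935. A reciprocal overlap of 50% gave 934 and 333 of 15236 shared regions, 6.13% and 2.19% against 6.05% and 2.58%. Leaving out Bay-0 gave 1992 and 650. A pair of alternatives was chosen after seeing the data: subtracting the median difference gave 769 and 746, and an Est-1 peak within 10 bp of the others' median gave 611 and 183. The counts stayed within 1.5 times with peaks merged up to 150 bp apart, the stronger 50% of each list, ranks by −log10 p, the median of the others, the mean of all peaks, or without Bur-0 or Tsu-1. Like counts did not always mean the same members. Ranks by −log10 p called 792 of the higher and 338 of the lower members again, and the median of the others 865 and 425. The numbers were 978 and 416 without Tsu-1, 1161 and 484 with wider merging and 1187 and 504 with the mean of all peaks. With only the stronger 50% of each list, however, just 63 higher and 86 lower members were among those called. Only 9323 regions were shared in that setting, so the shares called rose to 10.7% and 5.92%. Without Bur-0, 634 of the higher and 373 of the lower members were still 20 points apart. The share at gene ends, 51.6% higher and 50.2% lower, was 39.9% and 38.9% with a window of 200 bp, 76.1% and 68.4% with 1000 bp, 46.3% of the higher members at a threshold of 30 and 55.9% of them without Bay-0, where other regions had 57.5%. With 1000 bp other regions had 77.5%. The share with a like member within 10000 bp, 31.2% and 21.7%, was 20.8% and 18.2% within 5000 bp, 45.3% and 31.4% within 20000 bp, and 15.6% and 8.16% at a threshold of 30, where fewer members are left to be neighbours. Of 84 members named by rule, 59 kept a difference of 20 points or more in the same direction without Bur-0, 75 without Bay-0, 74 without Tsu-1 and 76 with ranks among shared regions. Members picked for naming beyond the rules are not in these counts. Where no construction is named, the cause was not tested.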
